A study of Mus musculus with 6 samples.

Results

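The oligodendrocyte lineage and central myelin genes examined here were Olig1, Olig2, Mbp, Mog, Mag, Mobp, Cnp, Opalin and Ermn. They were taken by gene name from the deposited table of read counts, in which they form 9 of 54532 genes, and 8 of the 9 had enough counts to be tested; Opalin did not. The table holds 1 RNA-seq library from each of 6 mice at postnatal day 3 (P3), made from total RNA of tissue labelled sciatic nerve: 3 wild-type controls (WT) and 3 mice lacking Dok6 in every cell (Dok6 mutant, Dok6-/-, given as Dok6 KO in the labels). The design text of the series asks whether genes related to myelination change in the mutant nerve, and the study also sought pathways acting below DOK6. All mice were on the C57BL/6 background. The mutant allele came from a floxed Dok6 whose exon 3 was removed by EIIa-cre, a Cre active from the fertilized egg on, so that neurons, glia and every other cell carried the deletion and an effect within 1 cell type cannot be told apart from effects arriving from others. The study calls the controls littermates, and the litter of each mouse is not given in the sources used here.

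Oligodendrocytes wrap axons with myelin in the brain and spinal cord, whereas Schwann cells do so in peripheral nerves such as the sciatic nerve. Both sheaths contain myelin basic protein (MBP), myelin-associated glycoprotein (MAG) and 2′,3′-cyclic nucleotide phosphodiesterase (CNP), but MOG, MOBP and OPALIN belong to central myelin, and the transcription factors OLIG1 and OLIG2 mark the oligodendrocyte lineage. Peripheral myelin is instead marked by proteins such as periaxin (Prx).

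Dok6 itself was lower in the mutants. Its level in CPM (counts divided by the library total and set to a common scale, libraries adjusted between each other by TMM) was 17.9, 11.9 and 17.5 in WT 1 to 3 and 7.26, 5.78 and 7.15 in mutant 1 to 3. The log2 fold change, mutant over WT, was -1.23 (SE 0.20, n = 3 per genotype; edgeR quasi-likelihood test, adjusted p = 0.0118), and the genotypes did not overlap. The count covers the whole gene and so does not isolate the deleted exon. The libraries were of like depth, with 17699904 to 18678170 counts each, and 3 counts, taken as the floor of detection for counting error, equalled 0.156 to 0.172 CPM. With 16.6% biological coefficient of variation over all tested genes, 204 of 17099 genes (1.19%) were called at an adjusted p under 0.05 with a log2 fold change beyond 2 in either direction. Without the fold threshold 2502 genes (14.6%) passed, 1474 higher (8.62%) and 1028 lower (6.01%) in the mutants. In 6538 genes (38.2%) the values of the genotypes did not overlap.

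Against that background, 0 of the 8 tested members passed either rule, and all 9 overlapped between genotypes. At an unadjusted p under 0.05 there was 1 member, Olig2. DESeq2 and limma voom likewise called 0 by the fold rule. The median log2 fold change was 0.38 over the 5 tested central members (Olig1, Olig2, Mog, Mobp and Ermn) and 1.06 over the 3 that Schwann cells also make (Mbp, Mag and Cnp), beside 0.01 over all tested genes. Several members spread widely between mice of the same genotype: Mobp differed 19.6-fold between the highest and lowest WT mouse and 81.4-fold between the highest and lowest mutant, whereas the median over all tested genes with counts in every library was 1.25-fold in WT and 1.25-fold in mutants. In bulk RNA a lower number of cells of a type and less RNA per cell cannot be told apart, so every level below is a level in the tissue as sampled.

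**Figure D1:**
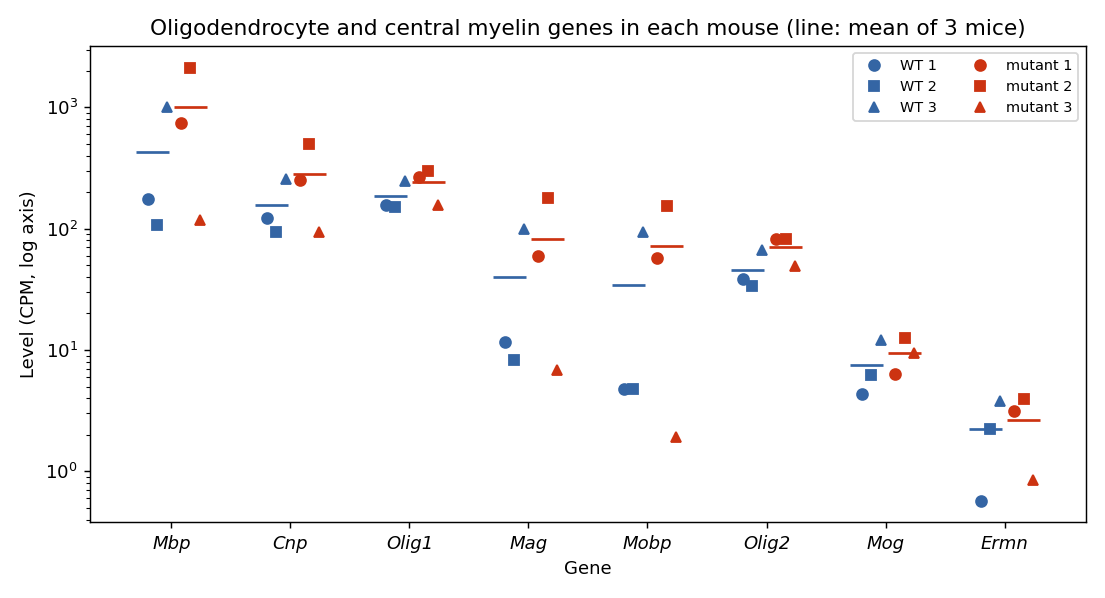
Level of each tested member in CPM (log axis) in the 3 WT mice (blue) and the 3 Dok6 mutant mice (red), with a line at the mean of 3 mice and 1 symbol per mouse number. Mutant 2 is the highest mouse for each of the 8 genes, WT 3 lies above the other WT mice for each, and Mobp spans 1.91 to 155 CPM within the mutants.

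The lineage transcription factors were the steadiest members. Olig1, which lies at chr16:91269772-91271933 (GRCm38, plus strand), was at 158, 152 and 247 CPM in WT 1 to 3 and at 268, 299 and 158 CPM in mutant 1 to 3. Mutant 3 sat with WT 1 and WT 2, and WT 3 with mutant 1 and mutant 2, so that the genotypes overlapped. The means were 186 ± 53.3 CPM in WT and 242 ± 74.0 CPM in mutants (SD, n = 3 mice each), and the log2 fold change was 0.38 (SE 0.25, 95% interval -0.20 to 0.96, edgeR adjusted p = 0.328). Olig1 is overlapped on the other strand by the non-coding gene Gm15966. The methods and the labels differ on whether the library kit kept strand, so reads of these partners may not have been separated.

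Olig2, the neighbouring gene on the same chromosome (chr16:91225457-91228677, plus strand), sets the oligodendrocyte and motor neuron fates in the developing spinal cord. It measured 38.5, 33.5 and 66.2 CPM in WT 1 to 3 and 81.8, 82.0 and 49.7 CPM in mutant 1 to 3. The mice fell in the same order as for Olig1, with WT 3 above mutant 3. Means were 46.1 ± 17.6 CPM in WT and 71.2 ± 18.6 CPM in mutants (SD, n = 3 each). The log2 fold change was 0.63 (SE 0.27, 95% interval 0.00 to 1.25); its edgeR p of 0.0488 became 0.147 after adjustment over all tested genes. Without WT 3 the log2 fold change was 0.99 and the adjusted p was 0.0415.

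The pair moved together across mice. The ratio of Olig2 to Olig1 counts per kb of gene length was 0.208, 0.188 and 0.229 in WT 1 to 3 and 0.261, 0.235 and 0.268 in mutant 1 to 3, a range of 1.43-fold over 6 mice. The ratio did not overlap between genotypes; the log2 difference, mutant minus WT, was 0.29 (exact two-sided permutation test, p = 0.1, the smallest that 3 mice against 3 allow, and 0.5 adjusted over the 10 gene ratios computed). For comparison, the ratio of Olig2 to Sox10, a transcription factor of both oligodendrocytes and Schwann cells, spanned 0.732 to 0.957 in WT and 0.687 to 1.21 in mutants, which overlapped.

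The myelin genes that both kinds of glia use spread far more widely. Mbp (chr18:82475146-82585637, plus strand), the main protein of the compacted cytoplasmic face of myelin, was at 175, 108 and 1013 CPM in WT 1 to 3 and at 750 CPM in mutant 1, 2129 CPM in mutant 2 and 119 CPM in mutant 3. WT 3 and mutant 2 were the highest mice, and mutant 3 lay within the range of the other WT mice. The ratio of highest to lowest mouse was 9.39 in WT and 17.9 in mutants, and the log2 fold change of 1.21 (SE 1.02, 95% interval -1.10 to 3.52, adjusted p = 0.437) did not pass. Without mutant 2 the log2 fold change was 0.01, and without WT 3 it was 2.83. The gene also encodes the Golli transcripts, which are made outside myelin, and the table gives 1 count for all its transcripts.

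Mag (chr7:30899176-30914873, minus strand), an adhesion protein of the inner, axon-facing side of the sheath, measured 11.7, 8.26 and 99.1 CPM in WT 1 to 3 and 59.9, 181 and 6.89 CPM in mutant 1 to 3. Mutant 3 held the lowest level of the 6 mice and mutant 2 the highest, so the mutants enclosed the whole WT range. The log2 fold change was 1.06 (SE 1.11, 95% interval -1.47 to 3.58, adjusted p = 0.537), and without mutant 2 it was -0.25.

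Cnp (chr11:100574904-100591729, plus strand), whose enzyme sits in the cytoplasmic channels of myelin, was at 122, 93.8 and 256 CPM in WT 1 to 3 and at 251, 502 and 94.3 CPM in mutant 1 to 3. The mice stood in the same order as for Mbp, with a narrower spread of 2.73-fold in WT and 5.32-fold in mutants. Its log2 fold change was 0.84 (SE 0.55, 95% interval -0.42 to 2.11, adjusted p = 0.319). The gene is overlapped on the other strand by Dnajc7, for which the same uncertainty on strand holds.

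Among the members held to be central, Mobp (chr9:120149707-120181484, plus strand), an abundant basic protein of compact central myelin, varied most between mice. It was at 4.76, 4.76 and 93.4 CPM in WT 1 to 3, from 83, 83 and 1633 counts. In mutant 1 to 3 it was at 57.6, 155 and 1.91 CPM, from 1111, 2845 and 36 counts. The highest and the lowest mouse of the 6 were both mutants, and WT 3 stood apart from WT 1 and WT 2. The log2 fold change was 1.06 (SE 1.33, 95% interval -1.98 to 4.10, adjusted p = 0.611), and it was -0.20 without mutant 2 and 3.91 without WT 3. The exons of the non-coding Gm38642 overlap Mobp on the same strand, so counts of this pair may have been split.

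Mog (chr17:37010743-37023398, minus strand), a protein of the outermost surface of central myelin, did not share that spread. Its levels were 4.30, 6.19 and 12.01 CPM in WT 1 to 3 and 6.38, 12.6 and 9.43 CPM in mutant 1 to 3. Mutant 3, the lowest mouse for Mobp, was the third highest for Mog. The ratio of Mog to Mobp counts per kb accordingly ran from 0.325 in mutant 2 to 19.9 in mutant 3, and from 0.517 in WT 3 to 5.23 in WT 2. The log2 fold change of Mog was 0.33 (SE 0.38, 95% interval -0.53 to 1.19, adjusted p = 0.571).

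Ermn and Opalin, genes of late, mature oligodendrocytes, were the least abundant members. Ermn (chr2:58045113-58052864, minus strand), which encodes the cytoskeletal protein ermin, measured 0.574, 2.24 and 3.83 CPM in WT 1 to 3 and 3.16, 3.93 and 0.848 CPM in mutant 1 to 3, from 10 to 72 counts. Its log2 fold change was 0.26 (SE 0.67, 95% interval -1.26 to 1.77, adjusted p = 0.819), and it fell below 0 without WT 1 (-0.19) or without mutant 2 (-0.14). Galnt5 overlaps Ermn on the other strand, so the counts of Ermn are uncertain. Near-identical sequence was also found between them, and the search did not set it apart from this overlap. Opalin (chr19:41061710-41077113, minus strand), a membrane protein of central myelin, had 1 count in WT 3 and 0 in the other 5 libraries. That is under the floor in every mouse, and no fold is given.

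**Figure D2:**
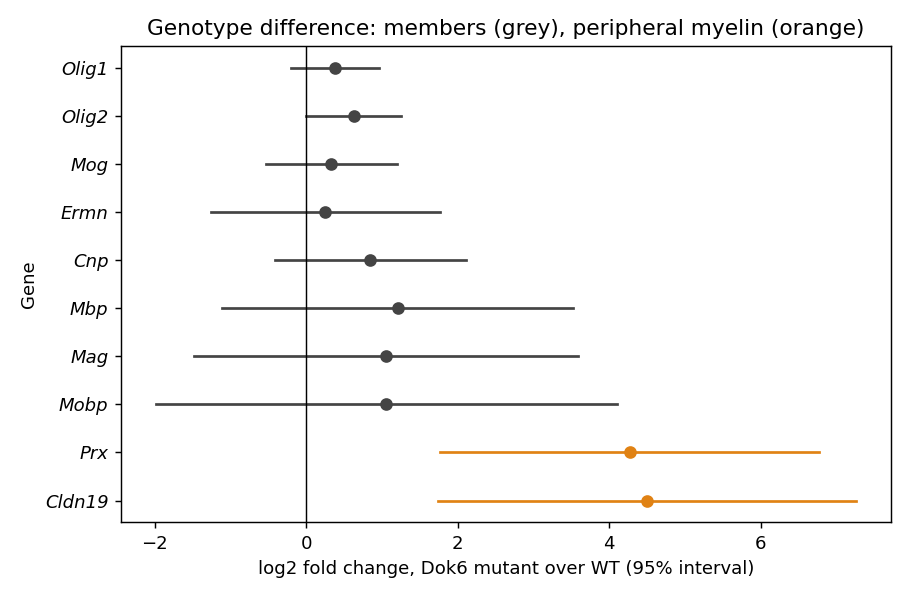
log2 fold change (Dok6 mutant over WT) with its 95% interval from the edgeR fit, for the 8 tested members (grey) and for Prx and Cldn19 of peripheral myelin (orange). The intervals of Mbp, Mag and Mobp reach from below -1 to above 3, that of Olig2 begins at 0.00, and those of Prx (4.27) and Cldn19 (4.50) lie above 0.

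Per kb of gene length, with the mean taken over the 6 mice, the order of levels was Olig1 (98.9 CPM per kb), Mbp (85.2), Cnp (60.4), Olig2 (23.2), Mag (15.0), Mobp (7.73), Mog (4.98), Ermn (0.669) and Opalin (0.00519). Few neighbours in this order were apart beyond their spread: the ranges over mice did not overlap between Mog and Ermn, nor between Ermn and Opalin, and overlapped for the other 6 neighbouring pairs. Within single mice the order was firmer for some, with Cnp above Olig2 and Mag above Mobp in 6 of 6 mice, and looser for others, with Mbp above Cnp and Mobp above Mog in 3 of 6. The lineage factor Olig1 thus lay above Mbp in 4 of 6 mice.

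Mbp, Mag, Mobp and Cnp ran in nearly the same order across mice. Mutant 2 was highest, followed by WT 3, mutant 1 and WT 1, and the lowest places were taken by WT 2 and mutant 3 in either order. Sox10, the transcription factor of both kinds of myelinating glia, followed the order of Mbp in a narrower range, at 63.4, 42.2 and 108 CPM in WT 1 to 3 and 91.3, 144 and 49.4 CPM in mutant 1 to 3 (log2 fold change 0.42, adjusted p = 0.504).

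Mog shared mutant 2 and WT 3 as its highest mice with Mobp, Mag and Cnp, but placed mutant 3 above mutant 1. The promoters of Mobp, Mag and Cnp, members that ran together, are printed beside that of Mog. Each is the stretch from 250 to 51 bases before the RefSeq start of the gene (GRCm38.p6), read 5′ to 3′ on the strand of the gene: Mobp at chr9:120149492-120149691 on the plus strand, Mag at chr7:30914914-30915113 on the minus strand, Cnp at chr11:100574689-100574888 on the plus strand and Mog at chr17:37023449-37023648 on the minus strand. Capitals mark ACAAAG, a core bound by SOX proteins such as SOX10, or CTTTGT, the same letters read on the other strand.
Mobp: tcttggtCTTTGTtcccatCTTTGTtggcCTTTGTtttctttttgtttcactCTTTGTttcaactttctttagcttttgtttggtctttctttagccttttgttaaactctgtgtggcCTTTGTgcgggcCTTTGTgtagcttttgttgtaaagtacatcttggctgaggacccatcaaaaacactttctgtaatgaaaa
Mag: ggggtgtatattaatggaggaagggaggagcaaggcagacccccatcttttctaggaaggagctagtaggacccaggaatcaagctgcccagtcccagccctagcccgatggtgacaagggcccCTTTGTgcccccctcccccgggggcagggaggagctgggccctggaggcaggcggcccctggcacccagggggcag
Cnp: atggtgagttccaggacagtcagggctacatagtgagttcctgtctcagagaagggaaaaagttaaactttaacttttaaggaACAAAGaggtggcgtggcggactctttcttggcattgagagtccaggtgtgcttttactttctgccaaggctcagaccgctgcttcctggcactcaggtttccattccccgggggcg
Mog: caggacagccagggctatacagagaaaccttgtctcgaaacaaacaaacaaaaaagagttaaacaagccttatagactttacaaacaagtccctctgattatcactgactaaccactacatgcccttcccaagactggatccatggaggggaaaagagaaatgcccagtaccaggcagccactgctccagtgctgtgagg
Mag has 3 RefSeq starts and its first listed start was used. Of 32851 RefSeq promoter windows of this length, 1 per annotated start, 4458 (13.6%) held the core on either strand at least once. The Mobp window held 6 matches, all on the other strand, the nearest beginning 120 bases before the start, and it was the 1 window among all of them with at least 6. Mag and Cnp held 1 match each, as did Opalin, whereas Mog, Olig2 and Ermn held 0. The E-box motifs CAGCTG (10.3% of windows) and CATCTG (12%), which bind basic helix-loop-helix proteins, were absent from these windows apart from 1 CATCTG in Opalin. The letters describe the windows and were not tested against the levels.

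The other genes of the lineage were followed with lists of known markers. Of 24 tested genes of mature oligodendrocytes (25 listed), 1 was higher at an adjusted p under 0.05 and 0 were lower, against 8.62% and 6.01% of all genes; 22 of the 24 fold changes were above 0, with a median log2 fold change of 0.69 beside 0.01 over all tested genes. The 1 that passed was Ppp1r14a, which encodes an inhibitor of myosin phosphatase also made by smooth muscle, at 0.344, 1.09 and 0.229 CPM in WT 1 to 3 and 3.94, 1.75 and 2.17 CPM in mutant 1 to 3 (log2 fold change 2.23, adjusted p = 0.0353). The summed list spanned 380.4 to 1412 CPM in WT and 392 to 2008 CPM in mutants, and Nkx2-9 had at most 3 counts in every library.

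Myrf, the transcription factor that switches on central myelin genes, was at 19.6, 12.6 and 56.0 CPM in WT 1 to 3 and 40.5, 66.4 and 10.1 CPM in mutant 1 to 3 (log2 fold change 0.41, adjusted p = 0.703). Cldn11, the claudin of central myelin tight junctions, was at 12.6, 9.52 and 73.1 CPM in WT 1 to 3 and at 49.2, 93.1 and 16.0 CPM in mutant 1 to 3 (log2 fold change 0.73, adjusted p = 0.554). Both had WT 3 and mutant 2 as their highest mice.

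Of 16 genes of oligodendrocyte precursors and committed precursors, 16 were tested and 0 passed in either direction. Of all tested genes 8.62% were higher and 6.01% lower. The median log2 fold change of the list was 0.32, beside 0.01 over all tested genes. Their sum, 1066 to 1459 CPM in WT and 1052 to 1881 CPM in mutants, spread less than that of the mature list. Pdgfra, the receptor that keeps precursors dividing and which fibroblasts also express, was at 206, 163 and 182 CPM in WT 1 to 3 and 250.2, 235 and 167 CPM in mutant 1 to 3. Enpp6, a gene of newly forming oligodendrocytes, was at 8.95, 3.67 and 25.5 CPM in WT 1 to 3 and 25.7, 37.9 and 2.54 CPM in mutant 1 to 3. Pdgfra varied little between mice, and Enpp6 followed the wide spread of the myelin genes.

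Most of the peripheral myelin genes were higher in the mutants. Of 7 tested genes of myelinating Schwann cells (8 listed), 5 were higher in the mutants and 0 lower, all 5 with a log2 fold change beyond 2 (1.19% of all genes passed that rule), and 6 did not overlap between genotypes (38.2% of all genes). Prx, which encodes periaxin, a scaffold of the Schwann cell membrane, was at 10.3, 5.45 and 3.83 CPM in WT 1 to 3 and at 28.2, 330.3 and 18.7 CPM in mutant 1 to 3 (log2 fold change 4.27, SE 1.10, adjusted p = 0.0365). Prx in WT 3, the WT mouse with the most Mbp, was the lowest of the 6. Cldn19, a claudin of the Schwann cell, was at 2.47, 1.26 and 1.20 CPM in WT 1 to 3 and at 6.54, 100.6 and 4.77 CPM in mutant 1 to 3 (log2 fold change 4.50, adjusted p = 0.0416). Pmp22, a membrane protein of compact peripheral myelin, was at 24.7, 17.5 and 14.6 CPM in WT 1 to 3 and at 89.3, 783 and 76.2 CPM in mutant 1 to 3 (log2 fold change 4.06, adjusted p = 0.0244). WT 3 was again lowest, and mutant 2 stood far above the other mutants for Prx, Cldn19 and Pmp22. Without mutant 2 their log2 fold changes were 1.85 (adjusted p = 0.0395), 1.78 (0.0408) and 2.13 (0.00645). With any 1 WT mouse left out they were 3.91 to 4.91, and the adjusted p, from 0.0628 to 0.155, did not pass for any of these 3 genes. Pmp2, a lipid-binding protein of peripheral myelin, had at most 3 counts in each WT library.

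**Figure D3:**
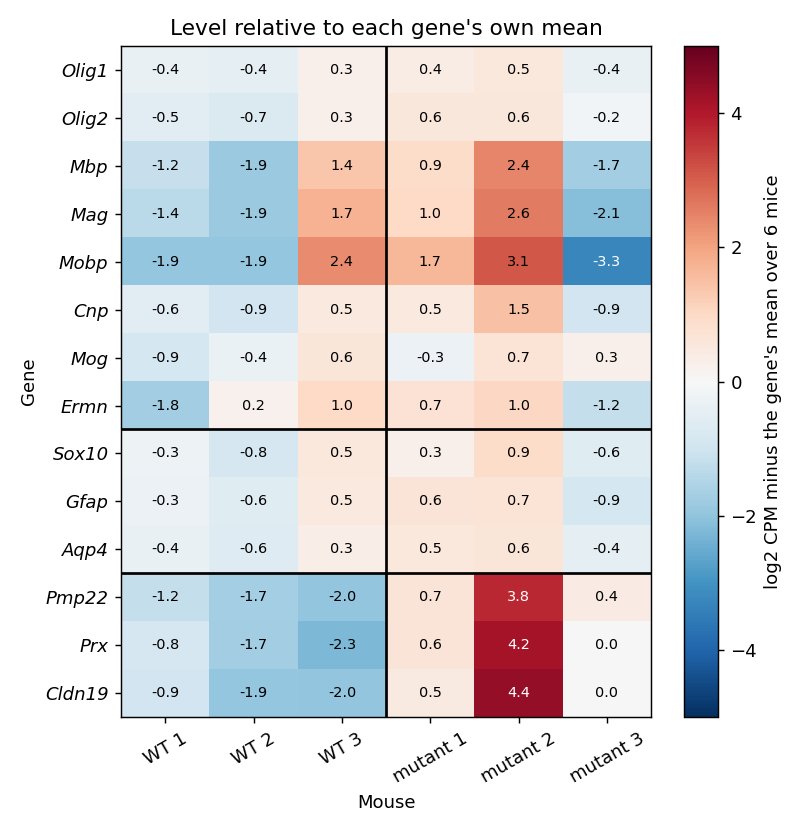
log2 CPM of each gene minus its mean over the 6 mice (colour and number), for the 8 tested members, for Sox10 and the astrocyte genes Gfap and Aqp4, and for 3 peripheral myelin genes. Mobp runs from -3.25 in mutant 3 to 3.09 in mutant 2 with WT 3 at 2.36, whereas Pmp22 runs from -1.96 in WT 3 to 3.78 in mutant 2 and is above its mean in the 3 mutants alone.

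Within a library the ratio of 2 genes does not depend on scaling. The ratio of Mbp to Prx counts per kb was 11.3, 13.2 and 175.5 in WT 1 to 3 and 17.6, 4.28 and 4.23 in mutant 1 to 3. The ratio of Mobp to Prx was 0.378, 0.712 and 19.9 in WT 1 to 3 and 1.66, 0.383 and 0.0833 in mutant 1 to 3. WT 3 stood far above the others in both, and mutant 1 lay above WT 1 and WT 2, so that the genotypes overlapped. The ratio of Olig1 to Prx, at 39.7, 72.1 and 166.5 in WT 1 to 3 and 24.5, 2.34 and 21.9 in mutant 1 to 3, did not overlap (log2 difference -2.86, exact permutation p = 0.1, adjusted p = 0.5).

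To set central beside peripheral glial RNA, the 6 central members (Olig1, Olig2, Mog, Mobp, Opalin and Ermn) and the 8 peripheral myelin genes were summed per kb. The central sum was 91.7, 88.5 and 162 CPM per kb in WT 1 to 3 and 169, 202 and 98.8 CPM per kb in mutant 1 to 3. The peripheral sum was 27.7, 20.6 and 14.3 CPM per kb in WT 1 to 3 and 125, 1561 and 73.0 CPM per kb in mutant 1 to 3. The central sums of the genotypes overlapped and the peripheral sums did not. Their ratio was 3.31, 4.30 and 11.4 in WT 1 to 3 and 1.36, 0.129 and 1.36 in mutant 1 to 3, so that the central sum exceeded the peripheral sum in each mouse but mutant 2. Olig1 alone made up 68.5% to 79.7% of the central sum. Without Olig1 the ratio was 0.671, 0.883 and 3.35 in WT 1 to 3 and 0.364, 0.0407 and 0.352 in mutant 1 to 3, and the central sum was then the higher one in WT 3 alone.

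On the log2 scale the ratio was 2.45 ± 0.94 in WT and -0.69 ± 1.96 in mutants (SD, n = 3 each), and the difference, mutant minus WT, was -3.14 (exact two-sided permutation test, p = 0.1, the smallest p that 3 mice against 3 allow). Without mutant 2 the difference was -2.01. Drp2, a dystrophin-related protein of the Schwann cell, which these libraries held at 47.0 to 59.1 CPM in WT, made up 24.9% to 38.5% of the peripheral sum in WT and 0.527% to 11.5% in mutants.

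**Figure D4:**
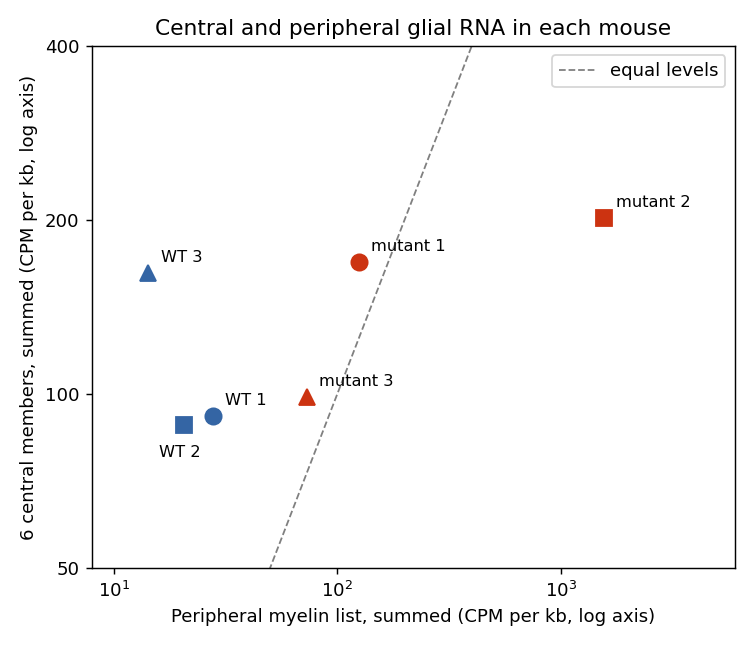
Summed level of the 6 central members against the summed level of the 8 peripheral myelin genes in each mouse, both in CPM per kb on log axes, WT in blue and Dok6 mutant in red; the dashed line marks equal levels. The central sum stays between 88.5 and 202 CPM per kb over the 6 mice while the peripheral sum runs from 14.3 in WT 3 to 1561 in mutant 2, the 1 mouse to the right of the line.

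The labelled tissue was checked against markers of other cells. Sciatic nerve holds Schwann cells and no astrocyte or neuron cell bodies, yet the 10 astrocyte genes summed to 2757 to 3335 CPM in WT and 2291 to 4162 CPM in mutants. Of the 10, 0 passed at an adjusted p under 0.05, beside 14.6% of all tested genes. Gfap, the astrocyte filament, which non-myelinating Schwann cells also make, was at 284, 227 and 489 CPM in WT 1 to 3 and 538, 555 and 189 CPM in mutant 1 to 3. Aqp4, the water channel of astrocyte endfeet, was at 270, 224 and 439 CPM in WT 1 to 3 and 508, 532 and 257 CPM in mutant 1 to 3. For both genes mutant 2, mutant 1 and WT 3 were the 3 highest mice, as for Olig1 and Olig2. The same 3 mice were highest for Slc1a2, Gja1, Fgfr3 and S100b. They were not for Slc1a3, Aldh1l1, Gjb6 and Aldoc, in which WT 3 was the lowest WT mouse.

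Of 7 genes of inhibitory central neurons, 2 were lower in the mutants (6.01% of all genes were), Slc32a1 (log2 fold change -0.32, adjusted p = 0.0487) and Pax2 (-0.62, adjusted p = 0.0287), and their sum was 891 to 988 CPM in WT and 691 to 799 CPM in mutants. The 8 Hox genes of the trunk, none past the test, summed to 890.3 to 1184 CPM in WT and 797 to 918 CPM in mutants. Of 5 motor neuron genes 1 was lower, Slc18a3 (log2 fold change -0.47, adjusted p = 0.0358), with sums of 104 to 135 CPM in WT and 101 to 127 CPM in mutants. Of 9 forebrain genes, Emx1 and Dlx1 had at most 3 counts in every library, and 0 of the 3 tested passed. The sum of that list, 86.8 to 96.5 CPM in WT and 83.7 to 94.5 CPM in mutants, came from the remaining genes, which are also used outside the forebrain. Among 8 microglial genes 1 was higher, beside 8.62% of all genes, Tmem119 (log2 fold change 1.57, adjusted p = 0.0153), and they summed to 149 to 182 CPM in WT and 180 to 228 CPM in mutants.

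Several lists of other cell types also held genes that were higher in the mutants at an adjusted p under 0.05, which 8.62% of all tested genes were. Of 10 sensory neuron genes of the dorsal root ganglion 9 were higher in mutants (220.0 to 278 CPM summed in WT, 420.2 to 1045 CPM in mutants). Of 10 tested skeletal muscle genes (12 listed) 9 were higher (19.3 to 27.4 CPM against 119 to 626 CPM), and of 8 nerve fibroblast genes 6 were higher (120.0 to 955 CPM against 1848 to 2949 CPM). Of 14 Schwann lineage genes 8 were higher (1037 to 1168 CPM against 1280 to 1610 CPM), of 6 endothelial genes 3 (142 to 237 CPM against 247 to 343 CPM), and of 5 perineurial genes 0 (153 to 285 CPM against 216 to 282 CPM). In these lists 0 genes were lower. The part of these other cell types in the ratio of central to peripheral RNA was not tested.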

How the data were processed

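Total RNA libraries of 6 mice were sequenced on an Illumina NovaSeq. The authors deposited raw read counts per gene with gene lengths in 1 table; the build named in the submitters' processing notes is mm10, and the aligner, counter and strand setting are not given in the sources used here. Genotypes were taken from the sample labels. Counts were tested with edgeR 4.0.16 (R 4.3.3): filterByExpr, TMM, quasi-likelihood test, Benjamini-Hochberg adjustment over 17099 genes. The study's call rule (adjusted p under 0.05, log2 fold change beyond 2) was used, and adjusted p under 0.05 alone. CPM used TMM-scaled library sizes, and CPM per kb the deposited lengths, which are shorter than the annotated exons for Mbp and Opalin. Coordinates are from GENCODE M21 and promoters from RefSeq; 7 of 9 members had a promoter to read. Near-identical genes were sought with BLAST 2.17.0. DESeq2 1.42.0, limma voom 3.58.1, other scalings, filters and left-out mice were alternatives. The scripts were tested on simulated data. Members and lists were chosen with earlier results of these data known, and all members are named; from the related lists, the largest changes past the test. Floors cover counting error only. Some genes of the lists are not reported here by name.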

Additional observations from a re-analysis of the deposited data

How the results depend on the processing

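Of 112 alternative values of the 8 tested members, 106 kept direction and side of the threshold, 4 reversed and 2 newly passed. The number of members called stayed at 0 under every alternative but 1; it was 1 (Olig2) with neither a filter nor a fold threshold, a setting chosen after seeing the data. Olig2 passed with no filter on low counts (log2 fold change 0.63, adjusted p = 0.0436) and without WT 3 (0.99, adjusted p = 0.0415), the cause not tested. Mag (-0.25), Mobp (-0.20) and Ermn (-0.14) reversed without mutant 2, and Ermn (-0.19) without WT 1. Leaving out 1 mouse at a time gave log2 fold changes of 0.20 to 0.64 for Olig1, 0.44 to 0.99 for Olig2, 0.01 to 2.83 for Mbp, 0.05 to 0.85 for Mog, -0.25 to 3.05 for Mag, -0.20 to 3.91 for Mobp, 0.14 to 1.39 for Cnp and -0.19 to 0.91 for Ermn, each highest without WT 3 and, for Olig1, Mbp, Mag, Mobp and Cnp, lowest without mutant 2. The difference in the log2 ratio of central to peripheral RNA lay between -3.70 and -2.01 when 1 mouse was left out (exact permutation p = 0.2 each, the smallest possible), was -2.36 without division by length, -3.29 without Pmp22 and Pmp2, and -2.16 from geometric means (p = 0.2). Settings added after seeing the data gave -3.61 without Drp2 and -2.86 without Olig1 (exact permutation p = 0.1 each).

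Same-numbered mice correlated at -0.01, -0.17 and -0.24 in their deviations from the genotype means. Mice of different numbers were not compared, so these values do not settle whether the replicate numbers pair the mice. A replicate block changed no call among the members. It gave a log2 fold change of 0.66 for Olig2 (adjusted p = 0.232), 1.55 for Mbp, 1.59 for Mag and 2.34 for Mobp (adjusted p = 0.543), the latter 2 more than 1.5 times the values without the block.

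With 3 mice per genotype and a spread of up to 81.4-fold, the intervals of Mbp, Mag and Mobp hold changes from a fall to a large rise, so a missed threshold does not show equal levels. The counts of Opalin do not tell limited depth apart from a near absence of its RNA.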

Other observations

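The genes most like the central members across mice were sought by Pearson correlation of log2 CPM with the mean standardised profile of the 5 tested central members, over 6 libraries and 15668 genes with a mean of at least 1 CPM. The profile was -1.07, -0.70 and 0.76 in WT 1 to 3 and 0.52, 1.08 and -0.59 in mutant 1 to 3. The 5 highest were Skap2 (r = 0.998), an adaptor protein of the Src kinase pathway, Clip4 (0.996), Dmac1 (0.995), Npy2r (0.990), a receptor of neuropeptide Y, and Nprl3 (0.986), a subunit of a complex that restrains mTORC1. Skap2 ran from 22.4 CPM in WT 1 to 36.1 CPM in mutant 2, a far narrower range than that of Mobp. These are descriptions over few libraries picked from many genes, the libraries share their RNA between all genes, and no p is given.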
